A study of Homo sapiens with 4 samples.

Results

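Genes for protein folding in the endoplasmic reticulum (ER), for the removal of misfolded ER proteins and for stress sensing were examined in HepG2 cells, a human hepatocellular carcinoma line, treated with 1 mM melatonin or its solvent DMSO. The set held 34 of the 58302 genes in the files, listed by name for their function in ER folding, ER-associated degradation and stress sensing. The data were 4 mRNA-seq libraries of cells of the WT genotype, with DMSO or melatonin for 24 h or 48 h. Each condition was 1 library of 1 cell line, so the spread between cultures is unknown and no p-value was computed.

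The ER is where secreted and membrane proteins enter the secretory pathway, fold, form disulfide bonds and receive sugars, and hepatocytes, which secrete most plasma proteins, depend on it heavily. When unfolded proteins accumulate, the membrane sensors ERN1 (IRE1), EIF2AK3 (PERK) and ATF6 start the unfolded protein response. ERN1 splices the mRNA of XBP1 into the form that encodes an active transcription factor, ATF6 is cut to release one, and EIF2AK3 slows translation and favours that of ATF4. The targets of these factors include the chaperones, the disulfide isomerases and the machinery of ER-associated degradation (ERAD), which returns misfolded proteins to the cytosol for the proteasome. The 34 genes were grouped by role into chaperones, cochaperones, disulfide isomerases, degradation, sensors and factors, and translocation and export.

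Members of this pathway are known to share short promoter elements, so the RefSeq windows from 250 bases before to 50 bases after each start (GRCh38.p14) were searched on both strands for 3 of them. Windows were matched for 30 of the 34 genes and were not matched for PDIA3, DERL1, DERL3 and SEC24D. The ER stress response element (ERSE) was read as CCAAT, then 9 bases of any kind, then CCACG. It was in the windows of 7 members and of 25 of all 27305 genes with a window (0.0916%), or in 27 of 35116 windows (0.0769%). The ERSE-II, read as ATTGG, then any single base, then CCACG, was in the windows of 3 members and of 19 of all genes (0.0696%). These were 19 of all windows (0.0541%), and no window held both an ERSE and an ERSE-II. The unfolded protein response element (UPRE), read as TGACGTGG, was in the windows of HYOU1 and DNAJC10 and of 253 of all genes (0.927%). It was in 256 of all windows (0.729%), and in HYOU1 it shared 5 bases with an ERSE-II. The ERSE matches are shown because 7 of the 30 members have them in common. The fixed letters are in capitals, with 4 bases of flank on each side and the strand on which the element reads as given.
HSPA5, chr9:125241387-125241413, minus strand: ttcaCCAATcggcggcctCCACGacgg
HSP90B1 (farther from the start), chr12:103930212-103930238, plus strand: ctgaCCAATcggaaggagCCACGcttc
HSP90B1 (nearer to the start), chr12:103930317-103930343, minus strand: cccaCCAATcgcgccgcaCCACGcacc
CALR, chr19:12938380-12938406, minus strand: ccgaCCAATgatggtcgaCCACGcgtg
CANX, chr5:179698774-179698800, plus strand: ccggCCAATcttcacactCCACGaaga
PDIA6, chr2:10812849-10812875, minus strand: cggaCCAATgagccgcagCCACGgctt
CRELD2, chr22:49918550-49918576, minus strand: tggcCCAATccgagttcgCCACGagag
XBP1, chr22:28800599-28800625, minus strand: ctggCCAATcgcggagggCCACGaccg

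The ERSE-II matches, which have a single variable base between their parts, are shown in the same way because 3 of the 30 members have them in common.
HYOU1 (nearer to the start), chr11:119057270-119057288, plus strand: actcATTGGaCCACGtccc
HYOU1 (farther from the start), chr11:119057376-119057394, plus strand: tgggATTGGaCCACGtcac
SDF2L1, chr22:21642110-21642128, minus strand: tttgATTGGtCCACGcttc
HERPUD1, chr16:56932021-56932039, plus strand: gccgATTGGgCCACGttgg

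The elements of HSP90B1 and that of CANX overlapped an annotated exon of GENCODE 44, and the others did not. The HSPA5 element lay 48 to 66 bases before the start and the HERPUD1 element 107 to 117 bases before it. For these genes the sequence upstream of the annotated exons and of the gene as the files give it is printed below, as HSPA5 encodes the chief ER chaperone and HERPUD1 had the lowest melatonin over DMSO ratio of the members tested at 48 h. Capitals mark the fixed letters of the element. A match in letters describes the sequence and was not tested as a binding site.
HSPA5, chr9:125241383-125241593, minus strand: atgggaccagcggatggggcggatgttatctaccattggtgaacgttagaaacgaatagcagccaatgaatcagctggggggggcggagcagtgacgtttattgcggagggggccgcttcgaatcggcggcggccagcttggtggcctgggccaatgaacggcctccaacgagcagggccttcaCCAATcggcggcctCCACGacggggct
HERPUD1, chr16:56931892-56932047, plus strand: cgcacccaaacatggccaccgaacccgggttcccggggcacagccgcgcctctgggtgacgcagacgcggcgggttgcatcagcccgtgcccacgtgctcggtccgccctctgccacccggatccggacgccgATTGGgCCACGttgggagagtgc

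The reads recovered on genes numbered 21616676 to 23086025 per library, and levels are in FPKM, the fragments on a gene scaled by its length in kilobases and by a library size set by the authors. The share of reads on mitochondrial genes was 20% and 16.6% for DMSO and melatonin at 24 h, and 9.77% and 11.9% at 48 h. All 8 markers of the hepatocyte lineage, such as ALB and AFP, reached an FPKM of 1 in every library, with a summed FPKM of 7353 to 9309. Single markers moved apart, with AFP and TF highest with DMSO at 48 h (AFP at 1131, 985, 1902 and 782 for DMSO and melatonin at 24 h and then 48 h) and TTR at 50.6 with DMSO and 255.6 with melatonin at 48 h. Of 7 markers of other cell types, 2 had such a level in each library, LYZ at an FPKM of 729 to 1069 and ACTA2 at 2.11 to 3.81. The summed FPKM of the 7 was 734 and 864 for DMSO and melatonin at 24 h and 739 and 1073 at 48 h, while COL1A2 was at 0 in every library and PTPRC had at most 1 read. The part of these differences in the results was not tested. Intervals given here are 95% exact Poisson intervals of a level and 95% exact Clopper-Pearson intervals of a ratio, and both cover counting error only.

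Reads on the 34 genes numbered 267479 for DMSO and 271161 for melatonin at 24 h, and 433755 for DMSO and 268861 for melatonin at 48 h. As a share of the reads on nuclear genes these were 1.55%, 1.42%, 2.08% and 1.34% in the same order. The DMSO library of 48 h thus stood above the other 3. Their read totals lay close to each other, while their shares ranged from 1.34% with melatonin at 48 h to 1.55% with DMSO at 24 h. The summed FPKM gave the same order of the highest library, at 3505, 3205, 4760 and 2871. In bulk RNA, fewer cells that express a gene and less RNA per cell cannot be told apart. HSPA5 and CALR together held 34.7% to 37.9% of the summed FPKM.

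**Figure D1:**
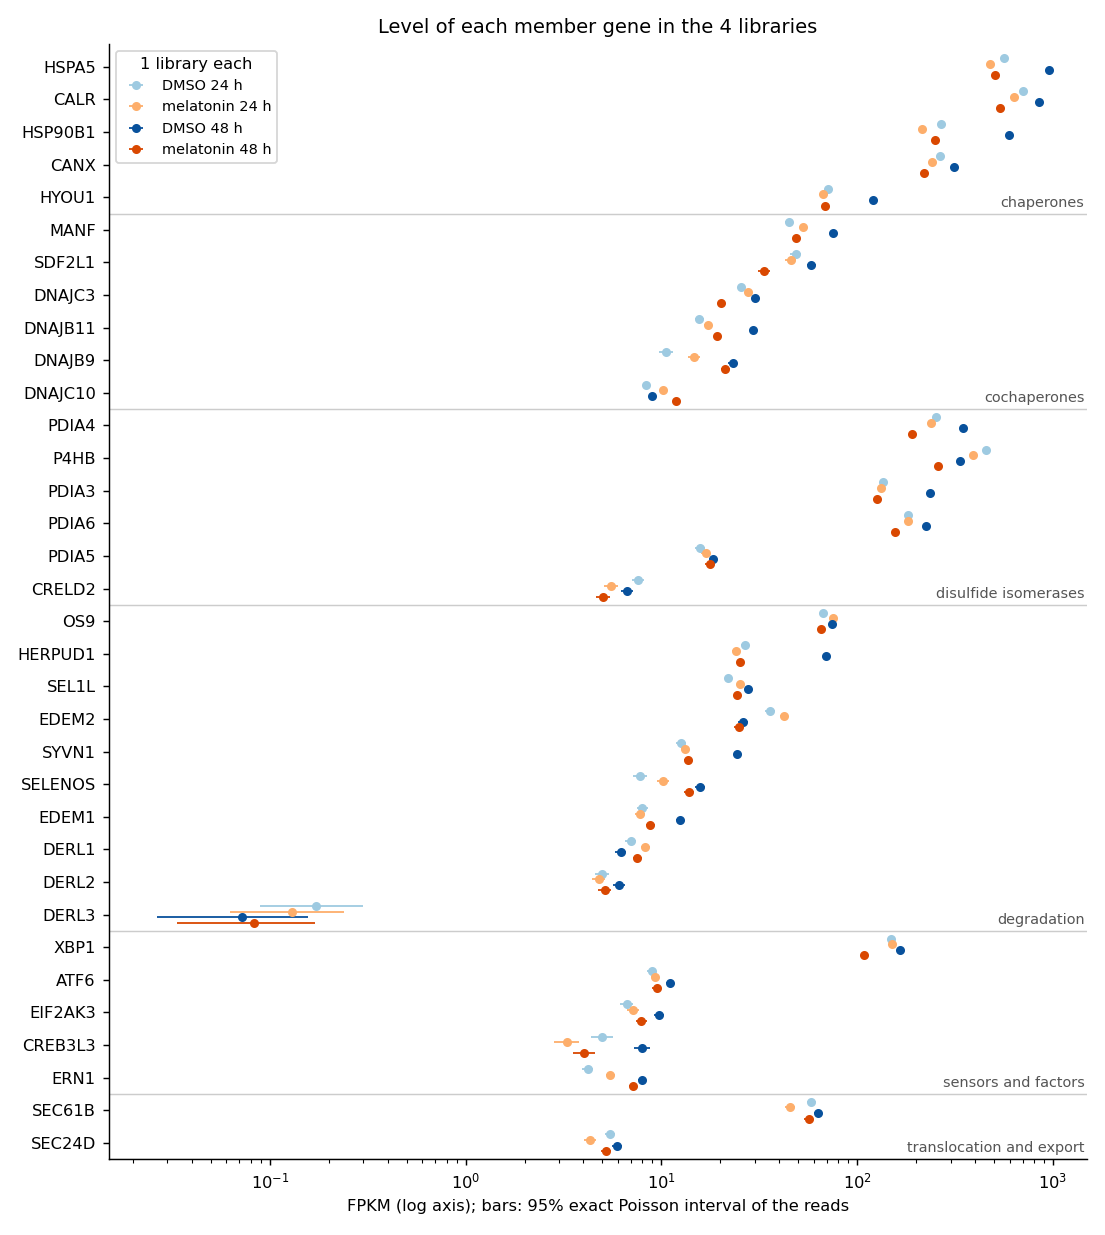
FPKM of each of the 34 genes (log axis) in the 4 libraries, grouped by role and ordered within each role by the level with DMSO at 48 h, with 95% exact Poisson intervals of the reads as bars. The DMSO library of 48 h is the highest of the 4 for 27 of the 33 genes tested, and the DERL3 points below an FPKM of 1 rest on 6 to 12 reads.

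Differences are given as log2 of the FPKM plus 1 of the first library over that of the second, which understates the change of low genes, and ratios are of FPKM without an addition. A gene was tested where either library reached an FPKM of 1, which held for 33 of the 34 members in each comparison. DERL3, a Derlin of the ERAD channel known from secretory cells, was the exception, with an FPKM of 0.172 and 0.130 for DMSO and melatonin at 24 h and of 0.0721 and 0.0830 at 48 h. It had 12, 10, 6 and 7 reads in that order, and the intervals overlapped. A gene was counted at 2-fold or at 1.5-fold, and the counts over all members are given with the percentage of all tested genes that passed the same threshold.

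In the comparison of melatonin with DMSO at 48 h, 31 of 33 members were lower with melatonin and 2 were higher, DNAJC10 and DERL1. Of all 13805 genes tested, 7252 were lower. The median log2 difference of the members was -0.46, against -0.02 for all 13805 genes tested. At 2-fold, 2 members were lower, HERPUD1 and HSP90B1, against 3.32% of all tested genes. At 1.5-fold, 12 members (36.4%) were lower, against 10.0% of all tested genes, and 0 were higher, against 8.62%. Among genes that reached an FPKM of 5 in a library of the comparison, the same count of 12 of 33 stood beside a background of 8.97%. The interval of the ratio lay below 1 for 29 members (87.9%), against 33.1% of all tested genes, and above 1 for 2 members, against 29.1%. Chaperones had the lowest median difference of the 6 roles, at -0.80, followed by the cochaperones at -0.56, the disulfide isomerases at -0.46, the sensors and factors at -0.27, the degradation genes at -0.18 and the translocation and export genes at -0.16. With mitochondrial reads left out of the library size, 30 members were lower and 3 were higher, and 10 were lower at 1.5-fold.

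At 24 h the same comparison gave no member past 1.5-fold in either direction, where 4.02% of all tested genes were higher and 7.53% were lower. At 2-fold the count was also 0, against 1.42% and 2.93% of all tested genes. There were 16 members above 0 and 17 below, and the median was -0.01, against 0.02 for all genes, but after rescaling to TPM 26 members were above 0 and 7 below. The members' median less that of all genes was -0.03 as deposited, and with TPM both medians were 0.17. With TPM 12% of all tested genes were higher and 9.47% lower at 1.5-fold, and 1 member was higher. Single members ranged from -0.48 for CREB3L3 to 0.44 for DNAJB9.

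**Figure D2:**
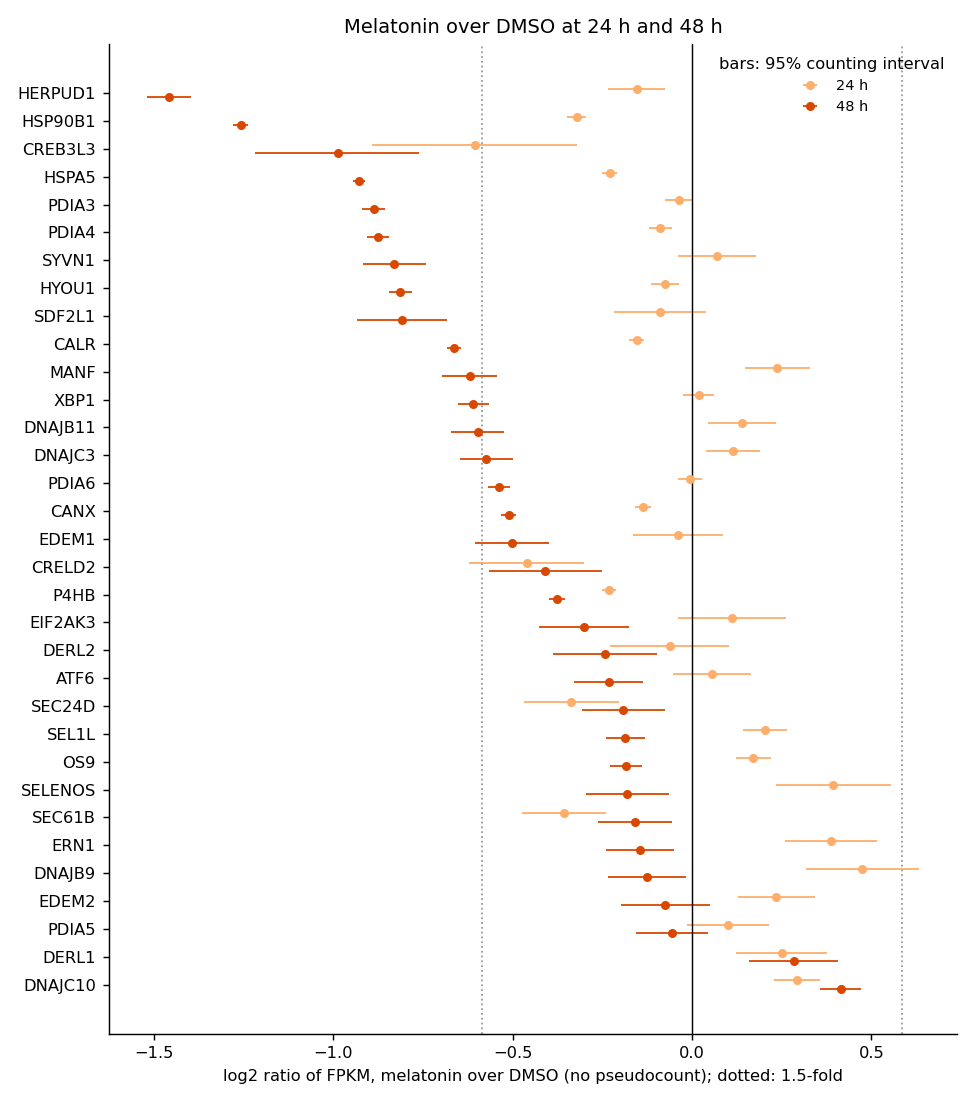
Ratio of melatonin over DMSO FPKM for the 33 members tested, as log2 without an addition, at 24 h and 48 h, with 95% exact Clopper-Pearson intervals as bars. At 48 h 31 members lie below 0 as deposited and 30 with mitochondrial reads left out of the library size, while at 24 h the members lie on both sides of 0, a split that moves from 16 and 17 to 26 and 7 with TPM.

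With DMSO alone, where time was the only named difference, 29 of 33 members were higher at 48 h than at 24 h. The 4 lower were P4HB, EDEM2, CRELD2 and DERL1. Of all 13854 genes tested, 6970 were higher. With TPM all 33 members were higher, on a scale where the median of all genes also rose, and the split of all genes was not counted there. The comparison over time contains the DMSO library of 48 h, which is also the denominator of the melatonin comparison at 48 h. The comparisons are therefore not independent. At 2-fold, 3 members were higher (DNAJB9, HERPUD1 and HSP90B1), against 3.50% of all tested genes, and at 1.5-fold 11 members (33.3%) were higher, against 11.2% of all tested genes. No member was lower at 1.5-fold, where 12.6% of all tested genes were. The median of the members was 0.31, against 0.00 for all genes. The scale of the libraries moved this comparison. With TPM the median of all genes was 0.46, 40.6% of them were higher and 7.41% lower at 1.5-fold, and 27 members were higher, while with the sum of reads as library size 15.8% were higher and 8.43% lower, and 15 members were higher. The members' median less that of all genes was 0.30 as deposited, 0.35 with TPM and 0.33 with the sum of reads.

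Between the melatonin libraries of 24 h and 48 h the members had a median of 0.03, against -0.04 for all genes. There were 18 members above 0 and 15 below, but 27 and 6 with TPM and 22 and 11 with the sum of reads as library size. At 1.5-fold 0 members were higher, against 6.76% of all tested genes, and 2 were lower, EDEM2 and P4HB, against 6.05%. With TPM, 20.9% of all tested genes were higher and 5.51% lower, and 3 members were higher and 0 lower. The median of all genes was 0.23 with TPM, and the members' median less that of all genes was 0.06 as deposited and 0.07 with TPM.

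Across all 4 libraries, DMSO at 48 h was the highest for 27 of the 33 members (81.8%) by the deposited FPKM. It was the highest for 33.1% of the 14612 genes that reached an FPKM of 1 in any library. For 23 members (69.7%) its Poisson interval lay above those of the other 3 libraries, where this held for 14.5% of genes. The members for which another library was the highest were DNAJC10, P4HB, CRELD2, EDEM2, DERL1 and OS9. With TPM, DMSO at 48 h was the highest for P4HB, CRELD2 and OS9 too. Their log2 differences of 48 h over 24 h with DMSO were then 0.06, 0.31 and 0.66. The shares of all genes in this paragraph were not counted with TPM. OS9, an ERAD lectin, had an FPKM of 74.9 with melatonin at 24 h and 74.5 with DMSO at 48 h, values with overlapping intervals.

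**Figure D3:**
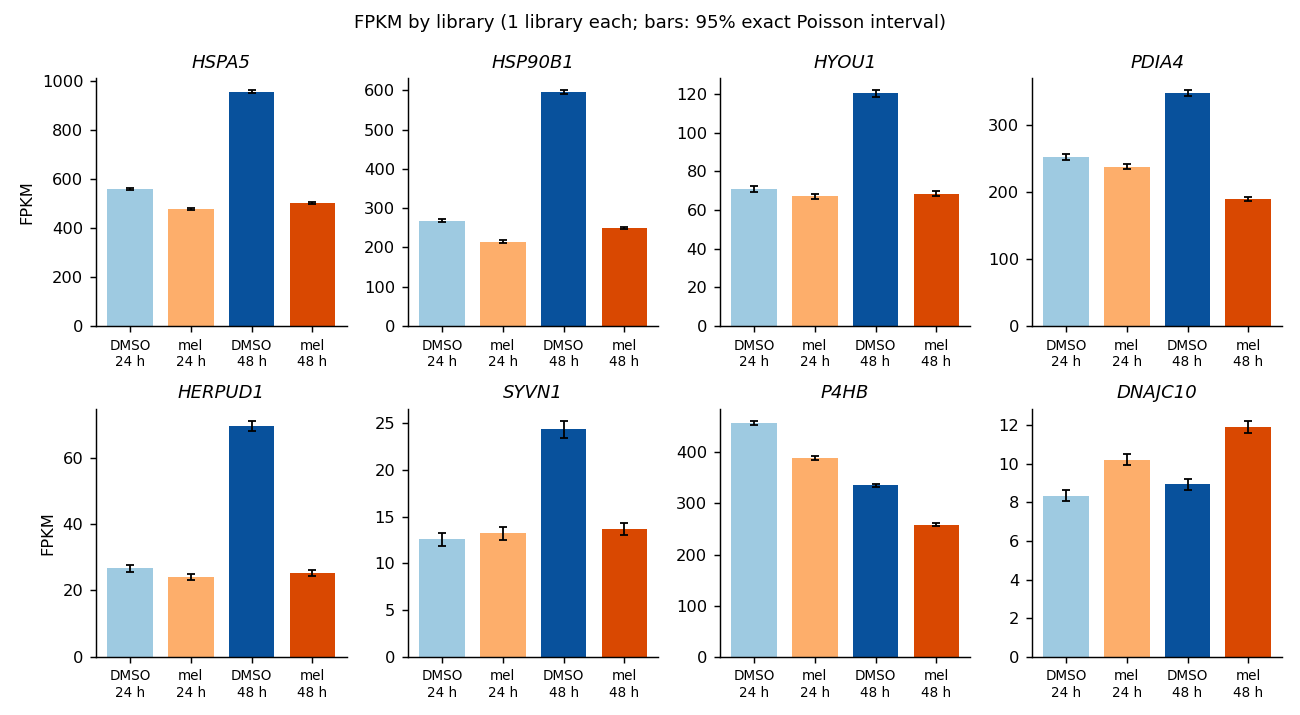
FPKM with 95% exact Poisson intervals (bars) of chosen members in the 4 libraries, drawn on linear axes that start at 0. HERPUD1, HSP90B1 and HSPA5 are highest with DMSO at 48 h, and DNAJC10 is highest with melatonin at 48 h.

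Among the chaperones, all 5 had lower levels with melatonin at 48 h, and 4 of them passed 1.5-fold. HSPA5 (BiP; chr9:125234853-125241330, minus strand, hg38), the Hsp70 of the ER lumen that also holds the stress sensors inactive, had an FPKM of 560.2 and 478 for DMSO and melatonin at 24 h, and of 957 and 503 at 48 h. Its ratio of melatonin over DMSO was 0.526 (95% interval 0.520 to 0.532) at 48 h and 0.853 (0.841 to 0.865) at 24 h. The level with DMSO at 48 h was 1.71 times that at 24 h, and the other 3 libraries stood within 478 to 560.2. HSP90B1 (GRP94), the Hsp90 of the ER, went from 268 and 215 at 24 h (DMSO, then melatonin) to 596 and 249 at 48 h. Its ratio at 48 h was 0.418 (0.412 to 0.424), a log2 difference of -1.25, and DMSO at 48 h was again the library apart. Both carry ERSE matches, HSPA5 a single one and HSP90B1 a pair in opposite orientations.

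HYOU1 (GRP170), an exchange factor for HSPA5 with a pair of ERSE-II matches, had an FPKM of 70.7, 67.2, 120.3 and 68.5 in the order of DMSO and melatonin at 24 h and then at 48 h. The 3 lower libraries lay between 67.2 and 70.7, and the ratio at 48 h was 0.569 (0.557 to 0.582). The lectin chaperones, which hold glycoproteins during folding, differed less. CALR (calreticulin) had 707, 635, 848 and 535 in the same order, with a ratio at 48 h of 0.631 (0.623 to 0.640). CANX (calnexin), its membrane-bound relative, had 266, 242, 314 and 220.1, with a log2 difference of -0.51 that did not reach 1.5-fold. For both, melatonin at 48 h was the lowest library by the deposited FPKM. With TPM it was above melatonin at 24 h, by a log2 difference of 0.03 for CALR and 0.14 for CANX. At 24 h the 5 chaperones were lower with melatonin by the deposited FPKM, from -0.32 for HSP90B1 to -0.07 for HYOU1, but with TPM HYOU1, CALR and CANX were at 0.10, 0.02 and 0.04 and only HSPA5 and HSP90B1 stayed below 0.

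Cochaperones, which direct HSPA5 to its clients, had 5 of 6 members lower with melatonin at 48 h and 5 of 6 higher with melatonin at 24 h, or 6 of 6 with TPM. MANF, a small secreted protein that binds HSPA5, had an FPKM of 45.0 and 53.0 for DMSO and melatonin at 24 h, then 75.0 and 48.8 at 48 h. The ratio was 1.18 (1.11 to 1.26) at 24 h and 0.651 (0.617 to 0.686) at 48 h, on opposite sides of 1. DNAJB11 (ERdj3) was likewise highest with DMSO at 48 h, with 15.6 and 17.2 at 24 h and 29.2 and 19.3 at 48 h, for a log2 difference of -0.57 at 48 h, just short of 1.5-fold on this scale. SDF2L1, which works with DNAJB11, had 48.6, 45.7, 58.3 and 33.3 and a ratio at 48 h of 0.571 (0.523 to 0.623). MANF and SDF2L1 were the cochaperones past 1.5-fold at 48 h.

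DNAJC3 (p58IPK) was lowest with melatonin at 48 h by the deposited FPKM, at 25.5, 27.6, 30.1 and 20.2 in the order used above. With TPM its log2 difference was 0.28 for melatonin over DMSO at 24 h and -0.17 between the melatonin libraries. On that scale DMSO at 24 h was the lowest. DNAJB9 (ERdj4), a repressor of ERN1, had 10.6, 14.7, 23.1 and 21.2. Both 48 h libraries were above both 24 h libraries, and the ratio of melatonin over DMSO was 1.39 (1.25 to 1.55) at 24 h, the highest of the members tested, and 0.916 (0.850 to 0.988) at 48 h. DNAJC10 (ERdj5), a reductase of disulfide bonds, was the cochaperone higher with melatonin at 48 h, with 8.34, 10.2, 8.93 and 11.9 and a ratio of 1.22 (1.17 to 1.28) at 24 h and 1.33 (1.28 to 1.39) at 48 h. Both melatonin libraries were above both DMSO libraries for this gene by the deposited FPKM. With TPM, DMSO at 48 h stood 0.58 above DMSO at 24 h in log2 and melatonin at 24 h stood 0.45 above it. This gene holds a UPRE match and neither an ERSE nor an ERSE-II match.

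The disulfide isomerases, which form and reshuffle disulfide bonds, were lower with melatonin at 48 h in 6 of 6 members as deposited and in 5 of 6 with mitochondrial reads left out of the library size, and 2 passed 1.5-fold. PDIA3 (ERp57), the partner of CALR and CANX, had an FPKM of 136, 132, 234 and 127, with a ratio at 48 h of 0.541 (0.529 to 0.553). A pseudogene copy of it, PDIA3P1, had 18.3, 18.6, 34.5 and 20.9, so reads of the pair may have been divided between them and the values of PDIA3 are uncertain to that degree. PDIA4 (ERp72) had 252, 237, 347 and 189 and a ratio of 0.545 (0.534 to 0.557). These genes had close ratios at 48 h, but PDIA3 was 1.72 times as high in the DMSO library at 48 h as at 24 h and PDIA4 was 1.38 times as high.

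PDIA6 (P5), an isomerase that binds HSPA5 and whose promoter holds an ERSE match, had 182, 182, 226 and 156, a log2 difference of -0.54 at 48 h. P4HB, the classical protein disulfide isomerase and a subunit of prolyl 4-hydroxylase, had 457, 389, 335 and 258. It was lower at 48 h than at 24 h in both treatments by the deposited FPKM, at -0.45 with DMSO and -0.59 with melatonin, though with TPM the difference with DMSO was 0.06 and that with melatonin -0.32. CRELD2, a small ER protein of the same family of functions, was lower with melatonin at both times, with 7.60 and 5.53 at 24 h and 6.70 and 5.05 at 48 h. PDIA5 lay between 15.7 and 18.3 in every library, and its ratios of melatonin over DMSO had intervals that included 1 at both times.

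The degradation genes were the most divided of the roles at 48 h, with log2 differences from -1.42 to 0.25 and 8 of 9 tested members below 0. HERPUD1, which assembles the ubiquitin ligase complex of ERAD and is known as a sensitive target of the response, had an FPKM of 26.7 for DMSO and 24.0 for melatonin at 24 h. At 48 h it had 69.5 and 25.3, for a ratio of 0.364 (0.349 to 0.380). The DMSO library of 48 h was 2.60 times as high as that of 24 h, while the remaining 3 stood between 24.0 and 26.7. SYVN1 (HRD1), the ligase itself, had 12.6, 13.2, 24.4 and 13.7, with a ratio at 48 h of 0.563 (0.530 to 0.598). SYVN1 overlaps FAU on the same strand, which had up to 4537 reads, beside 2935 for SYVN1 with DMSO at 48 h. PDIA5 overlaps SEC22A and HERPUD1 overlaps intronic transcripts of at most 104 reads. SYVN1, HSP90B1, DNAJB9, DNAJB11, CRELD2 and the 3 Derlins overlap genes with reads on the other strand. For SYVN1 this is MRPL49 at up to 681 reads and for DERL2 MIS12 at an FPKM of 6.11 to 8.47. PDIA6, PDIA3 and EIF2AK3 overlap genes of at most 73 reads on the other strand. Reads may have been divided between the genes of each pair, as the strand setting of the counting is not stated. SEL1L, the adaptor of SYVN1, had 21.9, 25.2, 27.6 and 24.3, a narrower range than that of its partners.

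EDEM1, which trims mannose from glycoproteins bound for ERAD, had 8.0, 7.78, 12.4 and 8.79, again with DMSO at 48 h apart. EDEM2, of the same family, had 35.9, 42.3, 26.2 and 24.9, with a log2 difference of -0.07 between treatments at 48 h. From 24 h to 48 h its difference was -0.44 with DMSO and -0.74 with melatonin by the deposited FPKM. With TPM these were 0.05 and -0.48. SELENOS, a membrane protein that recruits the extracting ATPase, had 7.78, 10.2, 15.7 and 13.9. Like DNAJB9 it was higher at 48 h than at 24 h in both treatments, and its ratio of melatonin over DMSO was 1.31 (1.18 to 1.47) at 24 h and 0.883 (0.815 to 0.956) at 48 h. DERL1 and DERL2, Derlins of the same family as DERL3, stood between 4.78 and 8.29. DERL1 was higher with melatonin at both times, with ratios of 1.19 (1.09 to 1.30) and 1.22 (1.12 to 1.33).

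The sensors and factors were lower with melatonin at 48 h in 5 of 5 members, of which XBP1 and CREB3L3 passed 1.5-fold. XBP1, whose spliced form drives many of the genes above and whose own promoter holds an ERSE match, had an FPKM of 149, 151, 165 and 108 as a gene total. Its ratio was 1.01 (0.983 to 1.04) at 24 h and 0.655 (0.636 to 0.675) at 48 h. Melatonin at 48 h was the library apart by the deposited FPKM but not with TPM. From 24 h to 48 h the log2 difference of XBP1 was 0.14 with DMSO and -0.48 with melatonin as deposited. Without mitochondrial reads in the library size these were 0.13 and -0.43, and with the sum of reads 0.30 and -0.35. With TPM they were 0.65 and -0.21, which left DMSO at 48 h apart. The files give gene totals, so the spliced and unspliced mRNA of XBP1 could not be told apart. CREB3L3 (CREBH), a liver-enriched factor of the ER membrane, was low at 4.98, 3.28, 7.97 and 4.02, and its ratio was 0.658 (0.539 to 0.801) at 24 h and 0.504 (0.430 to 0.591) at 48 h.

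The sensors themselves differed less between treatments at 48 h. ERN1 had 4.20, 5.49, 7.93 and 7.17, with both 48 h libraries above both 24 h libraries. EIF2AK3 had 6.64, 7.17, 9.74 and 7.91, and ATF6 had 8.92, 9.28, 11.1 and 9.44. Their log2 differences at 48 h were -0.13, -0.27 and -0.21 in the order named. For each of the 3, DMSO at 48 h was the highest library. In translocation and export, SEC61B, a subunit of the channel into the ER, had 58.4, 45.6, 63.0 and 56.4, and SEC24D, a cargo adaptor of the vesicles that leave the ER, had 5.46, 4.33, 5.93 and 5.20. For both, melatonin at 24 h was the lowest library, and the ratio to DMSO was 0.781 (0.720 to 0.847) and 0.792 (0.723 to 0.869).

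The melatonin effect at 48 h less that at 24 h was below 0 for 28 of 33 members (84.8%), with a median of -0.45. Of the 12775 genes tested at both times it was below 0 for 52.9%, with a median of -0.02. The members above 0 were DNAJC10, CRELD2, DERL1, SEC61B and SEC24D, with values from 0.03 to 0.19. For 8 members (24.2%) the ratio was above 1 at 24 h and below 1 at 48 h with an interval that excluded 1 at both times, against 4.85% of those genes. This difference also contains the DMSO library of 48 h and was not tested.

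**Figure D4:**
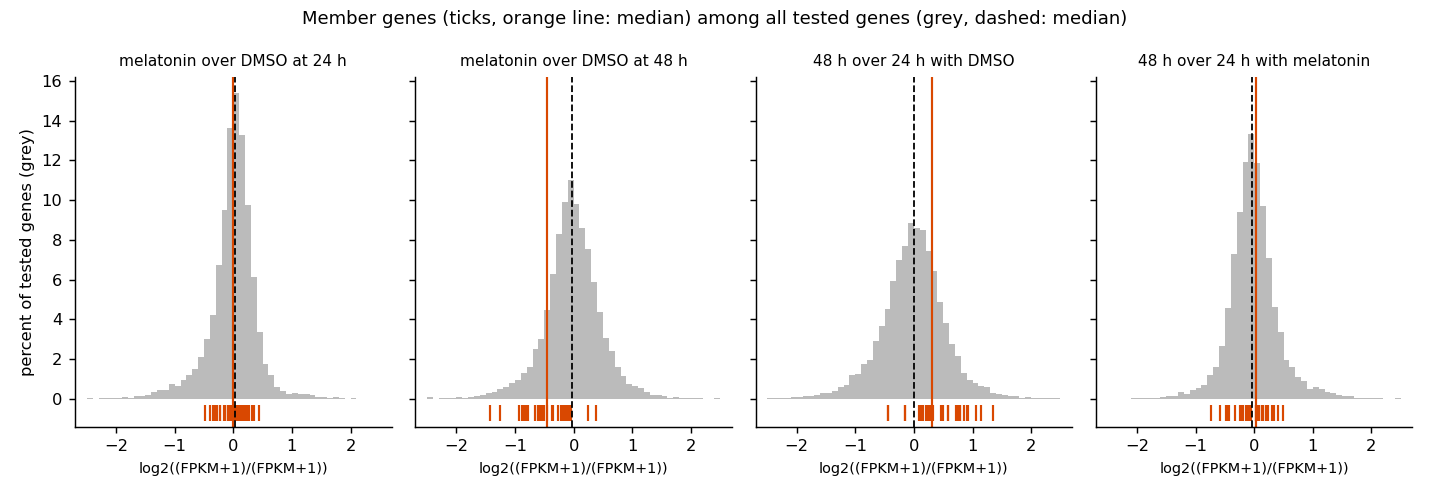
Distribution of the log2 difference of all tested genes (filled histogram, ending at -2.5 and 2.5) with each of the 33 tested members as a tick, for the comparisons of the 4 libraries. The members' median is -0.46 at 48 h with melatonin over DMSO and 0.31 at 48 h over 24 h with DMSO, and differs from that of all genes by -0.03 and 0.06 in the other 2 comparisons.

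Members with an ERSE or ERSE-II match were set beside those without, as a description. The 10 with a match had a median log2 difference of -0.73 with melatonin at 48 h, with 10 below 0 and 7 lower at 1.5-fold, against 6.40% of the 8642 tested genes with a matched window. The 20 matched members without either had a median of -0.21, with 19 below 0 and 4 lower at 1.5-fold. MANF, PDIA4, SYVN1 and CREB3L3 were the 4, so a low value at 48 h was also found where these letters are not in the window. In the time comparison with DMSO the medians were in the other order, at 0.28 with a match and 0.39 without. Outside the members, 19 tested genes held either element, and their median at 48 h was -0.11 with 3 lower at 1.5-fold.

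The other genes of the pathway were 108 genes in 9 lists, counted by the same thresholds. The PERK and ATF4 branch had the lowest median of the 9 lists at 48 h. Of its 12 genes 11 were tested, and all 11 were higher with melatonin at 24 h, with a median of 0.29, and lower at 48 h, with a median of -0.66, though 1 of them was above 0 at 48 h with the sum of reads as library size or without mitochondrial reads. At 1.5-fold 6 were lower at 48 h and 8 were higher at 48 h than at 24 h with DMSO, beside the 10.0% and 11.2% of all genes given above. DDIT3 (CHOP), a factor induced late in ER stress, had an FPKM of 5.21, 5.72, 19.3 and 8.64, and its log2 difference with melatonin at 48 h was -1.07. Its ratio of melatonin over DMSO at 24 h was 1.10 (0.859 to 1.41), an interval that included 1. The same held at 24 h for some other genes of this list, so their direction at that time is uncertain.

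The list of ER membrane transcription factors and their proteases had a median of 0.39 at 48 h, with 4 of 6 tested genes above 0 and 2 below, and of 0.30 at 24 h. CREB3L4 was at 0.78 and MBTPS2, the protease that makes the second cut of ATF6, at 0.71, the 2 genes of this list past 1.5-fold at 48 h. For time with DMSO this list had a median of -0.44, but 0.11 with TPM. Of 13 genes of oxidative folding, 5 were above and 8 below 0 at 48 h with a median of -0.17. TMX4, a thioredoxin-like protein of the ER membrane, had 8.31, 13.6, 4.68 and 12.0. On the log2 scale used here, it was the only gene of the 9 lists higher at 2-fold with melatonin at 48 h, at 1.19. As a ratio without the addition, CREB3L4 was at 2.24 (1.74 to 2.92).

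Glycan processing and lectins had a median of -0.04 over 10 genes at 48 h, which turned to 0.02 without mitochondrial reads, and UGGT2, a glycoprotein folding sensor, was at 0.66. Oligosaccharyltransferase subunits had 8 of 9 tested genes below 0, with a median of -0.20. The COPII coat had 9 of 10 below 0, also at -0.20. Without mitochondrial reads these counts were 7 of 9 and 7 of 10. On the log2 scale used here none of either list passed 1.5-fold. KRTCAP2, a low oligosaccharyltransferase gene at 1.29 with DMSO and 0.777 with melatonin at 48 h, had a ratio of 0.604 (0.437 to 0.827). The translocon and signal peptidase list had 10 of 17 below 0 and a median of -0.10, or 9 of 17 without mitochondrial reads, with SPCS2 lowest at -0.44. The other ER cochaperones had 7 of 13 below 0, but 9 of 13 above 0 without mitochondrial reads, with DNAJC1 and SIL1 at 0.47 each. The other ERAD genes had 10 of 15 below 0 and a median of -0.14, or 8 of 15 without mitochondrial reads. Among these, SELENOK had 13.3, 16.6, 26.6 and 19.8, in the same order of libraries as SELENOS.

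**Figure D5:**
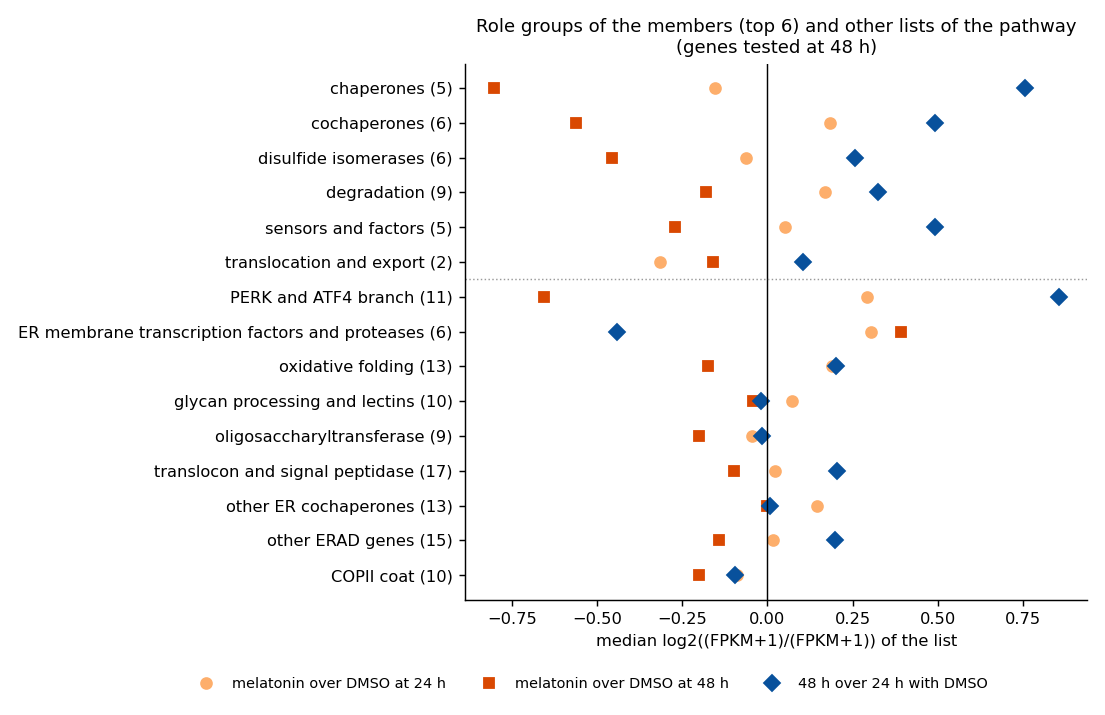
Median log2 difference of each role of the members (top 6) and of the other lists of the pathway, with the number of genes tested at 48 h in brackets, for melatonin over DMSO at 24 h and 48 h and for 48 h over 24 h with DMSO. Chaperones (-0.80) and the PERK and ATF4 branch (-0.66) have the lowest medians at 48 h, and with TPM the medians of the time comparison shift upwards, that of the membrane factors from -0.44 to 0.11.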

How the data were processed

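Polyadenylated RNA of HepG2 cells was sequenced as 1 library for each of 4 conditions. The authors deposited FPKM per Ensembl gene with the gene length and no read counts. The study's methods name MapSplice and Cufflinks on hg38, whereas the submitters' processing notes name Bowtie2 2.0.6, TopHat2 2.0.9, Cufflinks 2.1.1 and Cuffdiff 2.1.1, and which made the files could not be settled. From FPKM times length, which was a whole multiple of 1 step per library for 100% of values above 0 (tolerance 0.01 of a read), the reads were recovered and used for the 95% exact intervals and a floor of 3 reads (an FPKM of 0.135 to 0.163 for a gene of 1 kb). The implied library sizes were 18357838 to 22205042.

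Differences were log2((FPKM + 1)/(FPKM + 1)) for genes reaching an FPKM of 1 in a library of the comparison, counted at 2-fold and 1.5-fold over the whole table. With 1 library per condition no p-value was computed and no count test was run. The members, the other gene lists and the motifs were chosen with earlier results of these data known. All members are named, and of the other lists the genes changed 2-fold in a melatonin comparison or, failing that, up to 3 with the largest difference at 48 h were eligible. Gene lengths in the files were 0.647 to 2.47 times the longest GENCODE 44 transcript, which bears on levels between genes and not on ratios between libraries. Alternatives were a pseudocount of 0.1, no filter, a minimum FPKM of 5, TPM, centring on the median and the sum of reads as library size. Library sizes without mitochondrial reads were added after seeing the data. Scripts (Python 3.11.15, numpy 2.4.6, pandas 2.3.3, scipy 1.17.1, matplotlib 3.10.9) were tested on simulated data.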

Additional observations from a re-analysis of the deposited data

Results flagged for a closer look

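For 8 members the melatonin over DMSO ratio was above 1 at 24 h and below 1 at 48 h, with a counting interval that excluded 1 at both times. The same held for 4.85% of the 12775 genes tested at both times. As the effect at 48 h less that at 24 h, on the log2(FPKM + 1) scale, they were MANF at -0.84, DNAJB11 at -0.71, DNAJC3 at -0.66, DNAJB9 at -0.56, SELENOS at -0.52, ERN1 at -0.45, SEL1L at -0.38 and OS9 at -0.35. With 1 library per condition the difference between the times was not tested. The signs were opposite for 8 of 8 with TPM, with the sum of reads as library size and without mitochondrial reads. Only the signs were checked on these scales, and the intervals were not computed again. Without mitochondrial reads the log2 difference at 48 h came nearer to 0. It went from -0.12 to -0.05 for DNAJB9, from -0.13 to -0.07 for ERN1 and from -0.17 to -0.10 for SELENOS. Of the 8, 4 are cochaperones, 3 serve degradation and ERN1 is a sensor.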

How the results depend on the processing

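No paired analysis was possible because the labels give no replicate numbers and each condition was 1 library, so that no replicate could be left out either. For melatonin over DMSO at 48 h each of 33 members kept its sign under each of the 6 other settings of pseudocount, filter and scale named in the methods, and 32 did without mitochondrial reads in the library size. At 24 h 23 of 33 kept it with TPM and 29 with the sum of reads. With TPM the members' median became 0.17 at 24 h, -0.54 at 48 h, 0.81 for time with DMSO and 0.30 for time with melatonin, and with the sum of reads it became 0.47 and 0.16 for the time comparisons. Members past the threshold numbered 12 at 48 h, 11 for time with DMSO and 2 for time with melatonin at 1.5-fold in place of 2-fold. For time with DMSO the 2-fold count of 3 became 14 with TPM and 6 with the sum of reads. Every value rests on 1 library per condition, and counting intervals leave out the spread between cultures.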
